A study of Rattus norvegicus with 30 samples.

Results

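The synaptic vesicle and release machinery was followed here through 40 genes, chosen by symbol and grouped into 7 roles: synapsins, vesicle membrane proteins, calcium sensors, SNAREs and their regulators, Rab3 and active zone proteins, glutamate loading, and vesicle recycling. Of these members, 38 were listed in every table used, out of 21993 genes listed in all. All 38 also passed the filter on low counts in every comparison. The other 2, Cplx1 and Amph, were not analysed here.

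RNA was sequenced from primary hippocampal neurons of Wistar rat embryos (embryonic day 18), grown for 7 days. The neurons then received 30 µM dimethyl fumarate (DMF) or 30 µM monomethyl fumarate (MMF) in DMSO, or 6 µM cannabidiol (CBD) in ethanol (EtOH), with the vehicle at 0.2% in every culture, for 4 or 24 h. Vehicle cultures with DMSO or EtOH alone were collected at both times, which gave 10 groups of 3 libraries, 30 in all, with no deletion, transgene or cell sorting in any group. DMF is the dimethyl ester of fumaric acid, MMF is the monoester to which it is hydrolysed, and CBD is a plant cannabinoid. The purpose was to learn how these drugs act on neurons, and the comparisons below ask what they did to the mRNA of the release machinery.

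Neurotransmitter is loaded into vesicles by transporters, held in a reserve tethered by synapsins, and docked at the active zone by Rab3, RIM, Munc13, Bassoon and Piccolo. There the vesicle SNARE synaptobrevin pairs with syntaxin and SNAP-25 on the plasma membrane, and complexin and tomosyn regulate the pairing. Calcium entering through nearby channels is sensed by synaptotagmins and Doc2 proteins, which trigger fusion, and dynamin, synaptojanin, endophilin and the clathrin adaptors then recover the membrane.

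Each library held from 15108132 to 25367834 reads on genes (median 20088658). The neuronal label held in the markers: summed over 13 neuron markers, the level lay between 7829 and 9819 CPM (reads scaled to the library total) in every library. Astrocyte markers were also abundant (10 genes, from 2263 to 5780 CPM), whereas 10 microglia markers summed to between 1.46 and 17.0 CPM, with Tmem119 at 0 reads in 9 libraries. The cultures are therefore mixtures, and in such bulk RNA fewer cells of a type and less RNA per cell cannot be told apart. Nothing in the sources used here ties a replicate number to 1 litter. Deviations of libraries with the same number correlated positively in all comparisons, least clearly for MMF at 4 h. The fit that treats the number as a block is therefore given beside the fit without it wherever it changes a call.

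In none of the 6 comparisons of a drug with its vehicle did a member pass the main test. This was limma on the log2 of the normalised count plus 1, without the replicate block. Benjamini-Hochberg adjustment covered all genes, and the confidence intervals given here come from the same fit without the block. Genes past an adjusted p of 0.05 are called DEGs. The plot of log2 fold changes (log2FC) by member shows most of them close to 0. Across these 6 comparisons, the median log2FC of the 38 members ran from -0.15 to 0.03, and at least 37 of the 38 had a 95% confidence interval within a 2-fold change in either direction.

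**Figure D1:**
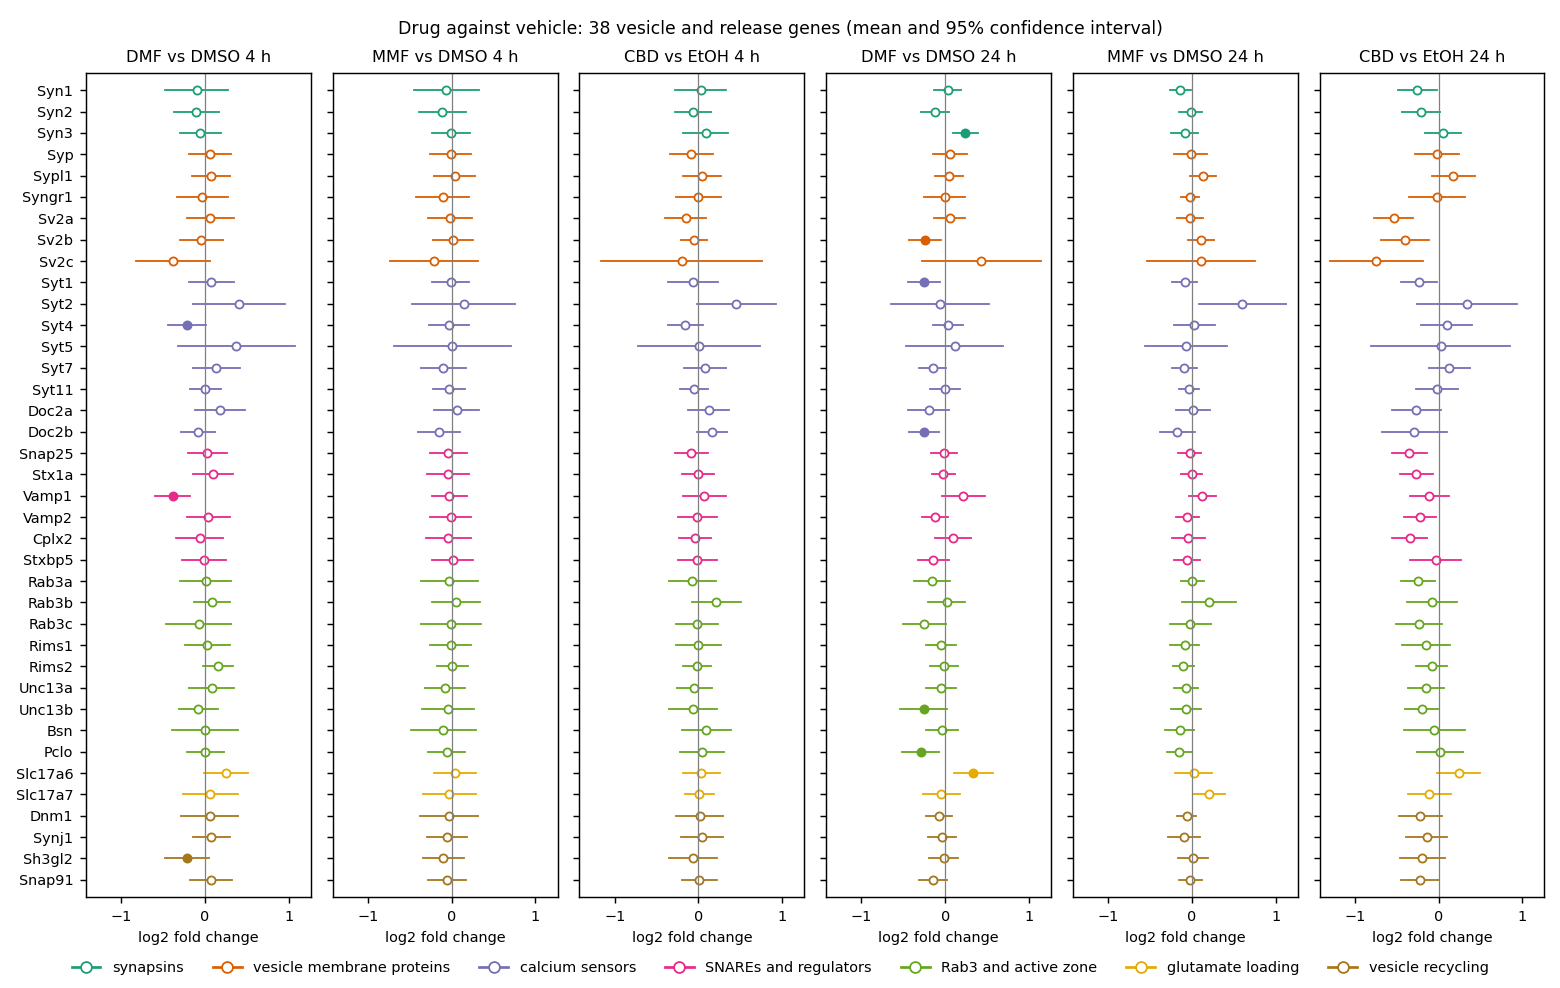
Log2 fold change (x axis) of each of the 38 members (y axis, coloured by role) for each drug against its vehicle, with the 95% confidence interval from limma as a line and 3 libraries per group. Filled points passed an adjusted p of 0.05 only with the replicate block. In the CBD panel at 24 h, 30 of the 38 points lie below 0, beside 29 for MMF at 4 h, and no point is filled there.

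The members differed in depth. Syt2 and Syt5, synaptotagmins that sense calcium, had 17 to 63 and 19 to 73 reads per library, and Sv2c, the least abundant SV2 glycoprotein here, had 44 to 180. The other 35 had at least 224 reads in every library. Over the 10 groups, the ratio of the highest to the lowest group mean had a median of 1.27 across members, from 1.11 for Stxbp5 (tomosyn, an inhibitor of SNARE assembly) to 2.62 for Syt2. The extremes were unevenly spread. The 24 h CBD group held the lowest mean of 16 members and the 4 h MMF group that of 8. The 24 h DMF group held the highest mean of 11, close to the 10 of its vehicle DMSO at 24 h, and EtOH at 24 h held that of 6.

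Members also varied between replicate numbers. A median of 32.4% of a member's variance lay between replicate numbers, against 16.6% for the 14930 genes tested. The share between groups was 44.6% for members and 44.3% for all genes. These are raw shares over 3 replicate numbers and 10 groups, and more levels take a larger share even without an effect. The group share is therefore not to be set against the replicate share. Replicate 3 had the highest mean for 27 of the 38 members and replicate 2 the lowest for 22. Stxbp5 had 71.3% of its variance between replicate numbers, Rab3c, a vesicle GTPase, 57.7%, Bsn (Bassoon) 52.6% and Rab3a 51.3%, these 4 being the ones above 50%. Replicate 3 also had the lowest astrocyte marker sums, from 2263 to 3200 CPM, against 3874 to 5224 in replicate 1 and 4414 to 5780 in replicate 2. The part of that difference in the members' levels was not tested.

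**Figure D2:**
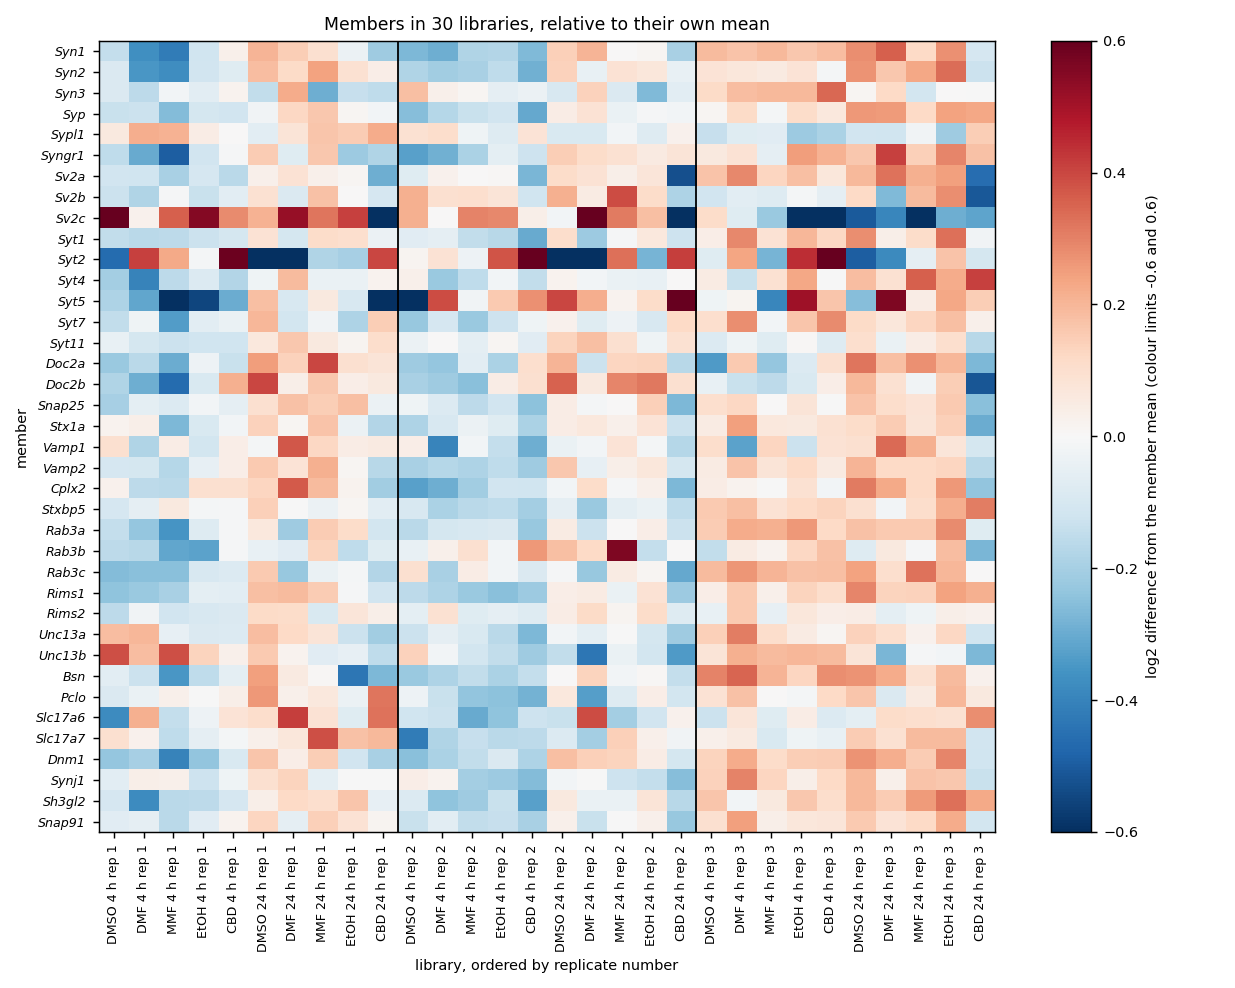
Log2 difference of each member (rows) from its own mean in each of the 30 libraries (columns, ordered by replicate number, with lines between the numbers). Red is above and blue below the mean. Most rows are redder in the replicate 3 block, which holds the highest mean of 27 members, and the largest swings belong to the rarely counted Syt2, Syt5 and Sv2c.

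The first question is what DMF did within 4 h. Vamp1 stood out among the members: it encodes synaptobrevin-1, the vesicle SNARE that is the less abundant partner of synaptobrevin-2 in much of the forebrain. Its normalised read counts were 456, 394 and 415 in the DMF libraries and 555, 536 and 562 in the DMSO libraries (422 ± 31.3 against 551 ± 13.6, mean ± SD, n = 3 each), so all DMF libraries lay below all vehicle libraries. The log2FC was -0.39 (SE 0.0916, limma), lower at each replicate number (-0.28, -0.44 and -0.44). The adjusted p was 0.0599 in the fit without the block, 0.00328 with the replicate block and 0.0238 by DESeq2. No member passed the main test, where 3.41% of the 14208 genes did, and 1 member (Vamp1, lower) had an unadjusted p below 0.05 by limma and by edgeR, where 20.1% and 19.9% of genes did.

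With the replicate block 3 members passed, all lower after DMF: Vamp1, Syt4 and Sh3gl2. This is 3 of 38 where the same fit passed 23% of all genes. Syt4, an unusual synaptotagmin that does not bind calcium through its first C2 domain and that is induced by neuronal activity, counted 3781, 4279 and 4558 after DMF and 4344, 5127 and 5210 after DMSO. The groups overlapped, yet each DMF library lay below the DMSO library of its own number, by -0.20, -0.26 and -0.19 on the log2 scale (adjusted p = 0.271 in the limma fit without the block and 0.00378 with it). Sh3gl2, the endophilin A1 that bends membrane during recycling, counted 1269, 1398 and 1636 after DMF and 1541, 1567 and 1869 after DMSO, again with overlapping groups but a lower value at each number (log2FC -0.21, adjusted p = 0.355 by limma and 0.0132 with the block).

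By role, the log2FC at 4 h of DMF spread most among the 8 calcium sensors, from -0.22 (Syt4) to 0.41 (Syt2), the 6 vesicle membrane genes, from -0.38 (Sv2c) to 0.07, and the 6 SNARE genes, from -0.39 (Vamp1) to 0.10. Syt2 and Sv2c, of few reads, had wide intervals that cover 0 (SE 0.240 and 0.193). The 3 synapsins had log2FC of -0.11 to -0.06, the 9 Rab3 and active zone genes of -0.08 to 0.16, the 4 recycling genes of -0.21 (Sh3gl2) to 0.07, and Slc17a6 and Slc17a7, which load glutamate, of 0.25 and 0.06. Vamp2, the main neuronal synaptobrevin, had a log2FC of 0.04 (95% confidence interval -0.21 to 0.30). Across the 38 members, 8 were higher and 7 lower at all 3 replicate numbers, which is 21.1% and 18.4% of them, where 27.3% and 26.3% of all genes were. The groups did not overlap for 4 members (10.5%), against 26.3% of genes. Among 13 neuron markers 6 lay below 0, and Tubb3 was a lower DEG (log2FC -0.64, adjusted p = 0.0250 by limma). With the block, 5 of 9 GABAergic, 3 of 10 astrocyte and 2 of 9 oligodendrocyte lineage markers were lower and 0 higher. By the same fit, which called 23% of genes, 1 neuron marker was higher and 1 lower, and 6 of 15 proliferation genes were higher. The part of these cells in the members' values was not tested.

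Since Vamp1 had the smallest p of the members at 4 h of DMF, its promoter is shown, with the 250 bases before the transcription start that RefSeq annotates on GRCr8, a later build than the mRatBN7.2 of the counts. On mRatBN7.2 the gene lies on chromosome 4 from 158012663 to 158019349. For the search, 4 motifs were read on both strands: the core of the antioxidant response element (TGACNNNGC), the cAMP response element (TGACGTCA), CCAAT and the GC box (GGGCGG). Capitals mark the matches.
Vamp1 (GRCr8 chr4:159698644-159698893, plus strand): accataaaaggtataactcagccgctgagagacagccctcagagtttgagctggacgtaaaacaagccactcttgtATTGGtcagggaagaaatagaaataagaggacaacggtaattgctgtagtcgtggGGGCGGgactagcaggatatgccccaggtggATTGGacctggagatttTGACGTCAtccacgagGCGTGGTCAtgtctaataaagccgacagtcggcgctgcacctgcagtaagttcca

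This window held a complete cAMP response element from -71 to -64 relative to the start, letters found in 1.587% of the 33469 RefSeq promoters of the same length. It also held the antioxidant core on the minus strand from -55 to -47 (10.078% of promoters), CCAAT on the minus strand at 2 places (34.017%) and 1 GC box (30.467%). A match describes letters and is not a bound site. Matching the symbols to the promoter table found 28 of the 38 members, too few for a statement on the promoters of the set.

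The next question is what DMF did at 24 h, when the members that passed with the block were mostly lower and none of them was among the 3 of the earlier time. No member passed the main test (3.97% of 13967 genes did), and 6 had an unadjusted p below 0.05 by limma, 2 higher and 4 lower, where 17.4% of genes did. With the replicate block 7 of 38 passed, 2 higher and 5 lower, against 12.9% of all genes. The edgeR and DESeq2 fits without the block called 0 members, beside 535 and 852 genes, also with 6 members at an unadjusted p below 0.05. With the block they called 7 and 4 members, beside 1822 and 1120 of the 13967 genes.

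The 2 that were higher with the block load or tether vesicles. Syn3, the synapsin best known from immature neurons, counted 2180, 2060 and 2032 after DMF and 1689, 1749 and 1879 after DMSO, with no overlap (log2FC 0.24, SE 0.0659, adjusted p = 0.0922 by limma and 0.0300 with the block). Slc17a6, which encodes the vesicular glutamate transporter VGLUT2, counted 995, 978 and 805 against 803, 680 and 716. The lowest DMF library lay just above the highest vehicle library (log2FC 0.33, SE 0.103, adjusted p = 0.125 by limma and 0.0189 with the block). Slc17a7, the transporter VGLUT1 that predominates in hippocampal pyramidal cells, did not share this: its log2FC was -0.05 (95% confidence interval -0.27 to 0.17).

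The 5 that were lower with the block sense calcium, sit in the vesicle membrane or prime vesicles at the active zone. Syt1, the main sensor for fast synchronous release, counted 3275, 3021 and 3608 after DMF and 3746, 3781 and 4261 after DMSO (log2FC -0.25, adjusted p = 0.150 by limma and 0.00993 with the block). Pclo (Piccolo), a scaffold of the active zone, counted 3344, 2597 and 3080 against 3916, 3421 and 3659 (log2FC -0.29, adjusted p = 0.156 by limma and 0.00643 with the block). For both genes every DMF library lay below every vehicle library.

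Sv2b, an SV2 glycoprotein that modulates priming, counted 2529, 2772 and 2233 against 2858, 3107 and 2911 (log2FC -0.24, adjusted p = 0.175 by limma and 0.0230 with the block). Doc2b, a high-affinity calcium sensor of spontaneous and asynchronous release, counted 635, 646 and 661 against 819, 794 and 710 (log2FC -0.26, adjusted p = 0.126 by limma and 0.0489 with the block). Neither showed overlap between the groups. The annotated span of Doc2b lies wholly within that of Ywhae, which has a median of 25864 reads against 647 for Doc2b, and how shared reads were assigned is not given in the sources used here, so the Doc2b counts are uncertain. Unc13b (Munc13-2, a priming factor), named after its values were seen, was lower at each number but with overlapping groups (log2FC -0.26, adjusted p = 0.331 by limma and 0.0279 with the block).

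These block calls rest on few libraries. Without replicate 2 the block fit called 0 members and without replicate 3 it called 13. In the fit without the block the count reached 3 when DMF replicate 3 was left out, beside 1165 of 14133 genes. The genes called over all were not counted for block fits without a replicate number, here or below.

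By role at 24 h of DMF, 8 of the 9 Rab3 and active zone genes and all 4 recycling genes had a log2FC below 0, with medians of -0.05 in each, while 4 of the 6 vesicle membrane genes lay above 0. Over the members 15 were lower at all 3 replicate numbers (39.5%, against 24.6% of genes) and 5 were higher (13.2%, against 22.8%). The groups did not overlap for 8 members (21.1%), near the 22.8% of all genes. Other genes of the vesicle cycle from a longer list had 2 lower DEGs of 72 tested, Dnm3 (log2FC -0.30), a dynamin, and Cadps2 (log2FC -0.42), a priming factor of dense-core vesicles, and a median log2FC of -0.01. Receptor subunits had 4 lower DEGs of 36, and 14 of 15 proliferation genes and 3 of 8 oligodendrocyte lineage markers were lower too. No neuron marker of 13 passed the main test, although 4 (Nefm, Tubb3, Elavl4 and Nefl) were lower with the block. The part of these cells in the members' values was not tested.

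The effect of DMF on Vamp1 differed between the 2 times in the main test, a call that held in only 2 of 12 fits without 1 library. At 24 h its counts were 621, 474 and 608 after DMF and 476, 467 and 512 after DMSO, where DMF replicate 2 sat among the vehicle libraries (log2FC 0.22, 95% confidence interval -0.04 to 0.47). Set against the lower level at 4 h, the difference of the 2 effects was 0.60 on the log2 scale (SE 0.147, 95% confidence interval 0.28 to 0.92, adjusted p = 0.0399 by limma, 0.00455 with the block). The block of this fit joined libraries of the same number over both times, and their correlation across times was not examined. Vamp1 was the 1 member called for this difference, where 4.12% of the 14432 genes were. On a scale common to all 30 libraries its group means ran from 409 (DMF at 4 h) to 594 (DMF at 24 h), the lowest and the highest of the 10 groups, and the other 8 lay between 460 and 554. Syt1 passed as well with the block, which called 2 members and 13.2% of genes: its log2FC was 0.08 at 4 h and -0.25 at 24 h, a difference of -0.33 (adjusted p = 0.262 by limma and 0.0224 with the block).

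Leaving out 1 library at a time kept the Vamp1 difference between 0.53 and 0.73, but its adjusted p moved between 0.0121 and 0.101 and passed in 2 of the 12 fits. Without the filter on low counts it was 0.0502. The median difference over the 38 members was -0.11.

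**Figure D3:**
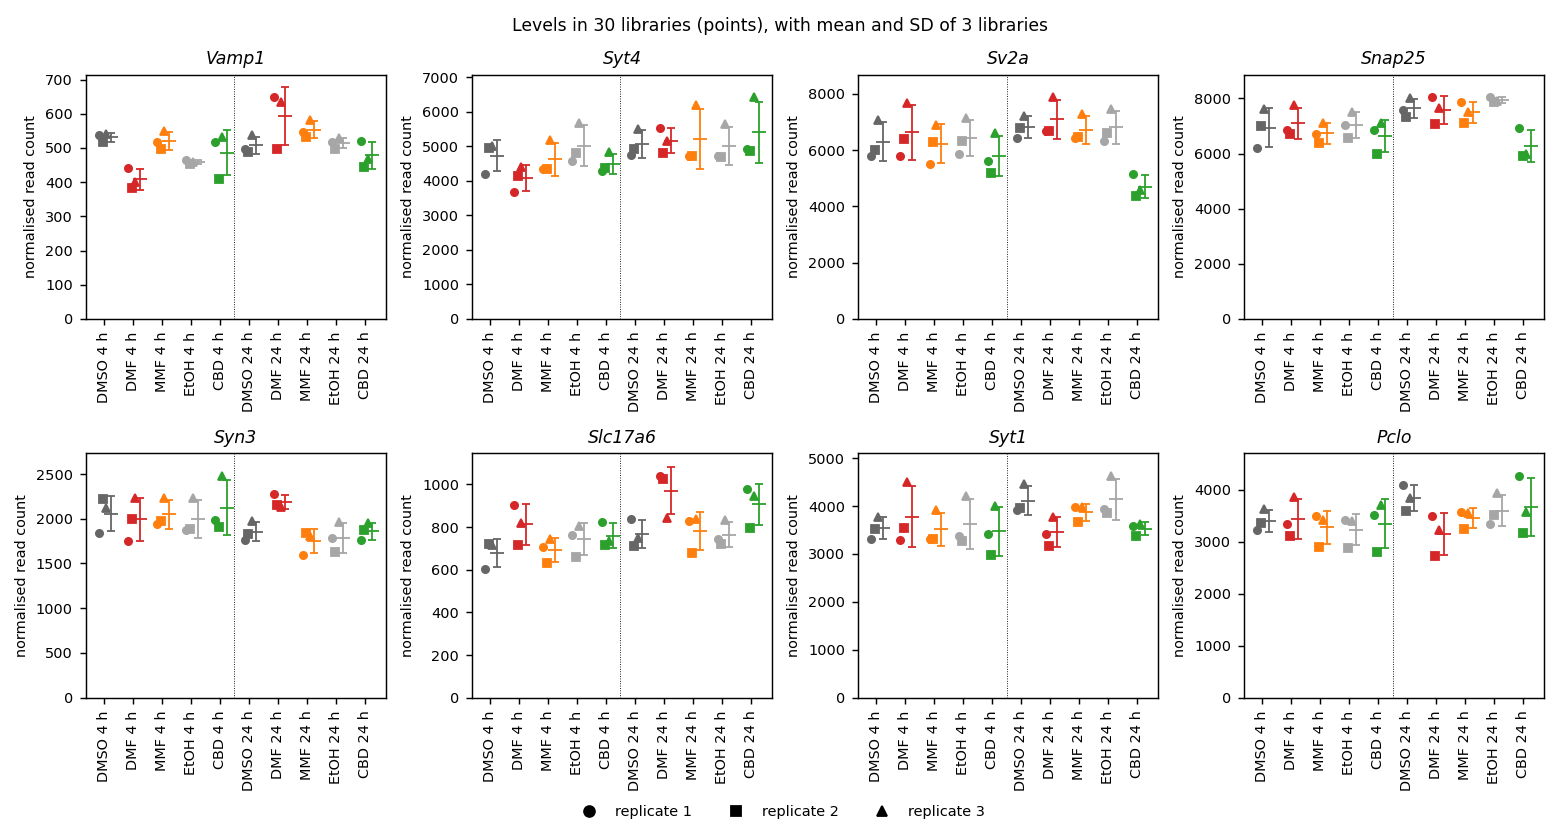
Normalised read counts (y axis, from 0, on a scale common to the 30 libraries) of 8 members in each group, with 1 point per library (shape gives the replicate number) and the mean and SD of 3 libraries as a bar to the right. Vamp1 is lowest in DMF at 4 h and highest in DMF at 24 h, and the 3 CBD libraries of Sv2a at 24 h lie below all its other libraries.

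For MMF no member was called at either time by limma, edgeR or DESeq2 with all libraries kept, with or without the block. At 4 h, 0 of 38 members and 0% of the 14032 genes passed the main test, and 0% passed with the replicate block. By limma, 36 genes and 0 members had an unadjusted p below 0.05, and edgeR and DESeq2 also called 0 members, with or without the block. The members with the smallest p were Doc2b (445, 515 and 552 after MMF against 541, 537 and 598 after DMSO, 95% confidence interval of the log2FC -0.40 to 0.10) and Sh3gl2 (1353, 1304 and 1578 against 1408, 1430 and 1706, interval -0.35 to 0.15). Both had overlapping groups. Of the 38, 0 were higher and 4 lower at all 3 replicate numbers (10.5%), where 6.57% and 8.94% of genes were, and 0 had groups apart, where 2.76% of genes did.

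At 24 h of MMF, 0 of 38 members passed the main test, as did 0.00707% of the 14137 genes, and 0 passed with the block, where 1.38% of genes did. The edgeR and DESeq2 fits called 0 members too, and 4 members had an unadjusted p below 0.05 by limma, where 4.43% of genes did. With the block 10 members, 5 higher and 5 lower, had such a p by limma, as did 14.2% of genes. Syt2, the fast calcium sensor of inhibitory and hindbrain terminals, had the smallest p, with 29.5, 42.5 and 32.3 counts after MMF and 21.8, 21.5 and 23.5 after DMSO (log2FC 0.60, SE 0.229). The groups were apart, at 17 to 63 reads per library over the series. Slc17a7 followed, with 18250, 15450 and 15900 against 14300, 13160 and 15500 (log2FC 0.21, SE 0.0847), where the groups overlapped. At all 3 replicate numbers 6 members were higher (15.8%, against 17.6% of genes) and 9 lower (23.7%, against 17.6%), and 6 had groups apart (15.8%, against 9.73%).

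For the direct comparison of the fumarates at 30 µM, 2 pairs were compared, DMF with MMF at each time, with p-values adjusted over all genes within each pair. These reuse the DMF libraries above, so they are not separate evidence on DMF. At 4 h, 0 members passed the main test (1.61% of 14200 genes did) 1 had an unadjusted p below 0.05 by limma (17.4% of genes), and 5 passed with the block (23.6% of genes). Vamp1 counted 451, 390 and 410 with the diester and 532, 509 and 565 with the monoester, with no overlap (log2FC -0.36, 95% confidence interval -0.59 to -0.14, adjusted p = 0.107 by limma and 0.00450 with the block).

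Of the other members that passed with the block at 4 h, Syt4 was lower under DMF (log2FC -0.19, adjusted p = 0.0141). Higher under DMF were Syt7, a slow high-affinity calcium sensor (log2FC 0.23, adjusted p = 0.00874), Slc17a6 (log2FC 0.21, adjusted p = 0.0405) and Unc13a, the priming factor Munc13-1 (log2FC 0.15, adjusted p = 0.0426), each with overlapping groups. The block fit by limma called 0 members without replicate 3 and 7 without replicate 2. At all 3 numbers 12 members were higher (31.6%, against 27.5% of genes) and 3 lower (7.89%, against 25.8%), and the groups were apart for 2 (5.26%, against 24.2%). For all 38 members the 95% confidence interval of the difference between DMF and MMF lay within a 2-fold change.

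At 24 h, 0 members passed the main test between the fumarates (3.56% of 14233 genes did), with 5 at an unadjusted p below 0.05 by limma (17.3% of genes). The edgeR and DESeq2 fits called 1 and 2 members, beside 507 and 829 genes. With the block 3 passed, against 12.2% of genes. Syn3 counted 2409, 2277 and 2242 under DMF and 1689, 1943 and 1913 under MMF, so every DMF library was above every MMF library (log2FC 0.32, SE 0.0738, adjusted p = 0.0521 by limma, 0.0484 by edgeR, 0.0118 by DESeq2 and 0.0145 with the block). Sv2b counted 2796, 3064 and 2464 against 3358, 3886 and 3374, with no overlap (log2FC -0.35, SE 0.0947, adjusted p = 0.0926 by limma, 0.0242 by DESeq2 and 0.00364 with the block). Slc17a7 counted 15400, 12760 and 15600 against 19240, 16230 and 16740 (log2FC -0.26, adjusted p = 0.243 by limma and 0.0256 with the block).

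Without replicate 3 the block fit called 7. At all 3 numbers 7 members were higher (18.4%, against 22.3% of genes) and 12 lower (31.6%, against 24.9%), and 6 had groups apart (15.8%, against 22.7%). The interval of the difference lay within a 2-fold change for 36 of the 38.

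CBD at 4 h gave no member past the main test (0.00705% of 14193 genes did) and none with the block (2.33% of genes), nor by edgeR or DESeq2, and 0 members had an unadjusted p below 0.05 by limma, where 3.97% of genes did. Syt2 had the smallest p again, with 51.6, 60.8 and 58.1 counts after CBD and 33.6, 44.4 and 46.5 after EtOH. Its groups were apart (log2FC 0.45, 95% confidence interval -0.02 to 0.93). Doc2b counted 765, 706 and 676 against 618, 680 and 619, nearly apart (log2FC 0.16, interval -0.02 to 0.35). At all 3 numbers 6 members were higher (15.8%, against 18.3% of genes) and 7 lower (18.4%, against 17.8%), and 1 had groups apart (2.63%, against 9.95%).

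Of the 6 comparisons with a vehicle, CBD at 24 h had the most members lower at all 3 replicate numbers. Of the 38, 30 had a log2FC below 0 (78.9%, against 50.9% of genes), close to the 29 of MMF at 4 h (76.3%, against 55.7%), the 26 of MMF at 24 h and the 25 of DMF at 24 h, where the medians lay between -0.04 and -0.03. With CBD at 24 h, 22 were lower at all 3 replicate numbers (57.9%, against 22.8% of all genes), while 3 were higher at all 3 (7.89%, against 20.2%). The median log2FC was -0.15. The median gene lay near 0, where the scaling by size factors places it in any comparison. All genes were not matched to the members in precision, with a median SE of 0.134 against 0.111. For 15 members (39.5%, against 15.9% of genes) the CBD libraries all lay below the EtOH libraries, and for 0 members all above. No single member passed the main test, in which 0.114% of 14079 genes passed, nor with the block (0.504% of genes), while 11 members had an unadjusted p below 0.05 by limma, all lower, where 9.83% of genes did. By edgeR 0 were called with 10 below that unadjusted p (10.3% of genes), and by DESeq2 1 was called, Sv2a, beside 170 of the 14079 genes.

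**Figure D4:**
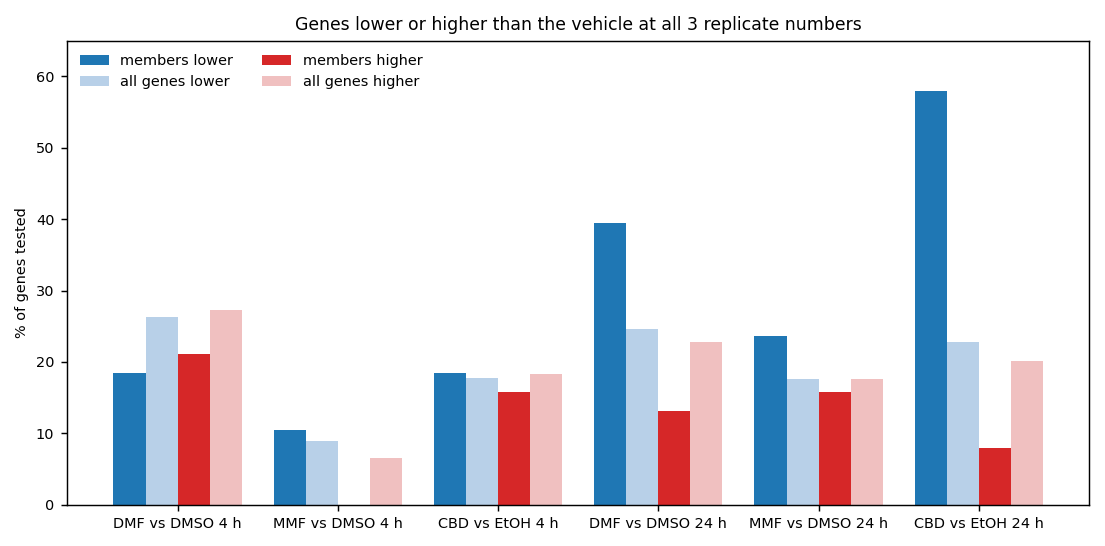
Percent of genes (y axis, from 0) lower (blue) or higher (red) than the vehicle at all 3 replicate numbers, for the 38 members (dark bars) and all genes tested (pale bars), for the 6 pairs of drug and vehicle (x axis). The dark blue bar for CBD at 24 h reaches 57.9% beside 22.8% for all genes, and that for DMF at 24 h reaches 39.5% beside 24.6%.

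Sv2a encodes the SV2 glycoprotein found on nearly all synaptic vesicles and is the binding site of the anticonvulsant levetiracetam. Its counts were 5045, 4291 and 4487 after CBD and 6227, 6488 and 7344 after EtOH (4608 ± 391 against 6686 ± 584, mean ± SD, n = 3 each). Every CBD library was well below every EtOH library, with log2 ratios of -0.30, -0.60 and -0.71 at the 3 numbers. The log2FC was -0.54 (SE 0.0998, 95% confidence interval -0.77 to -0.31), with an adjusted p of 0.166 by limma, 0.0628 with the block, 0.185 by edgeR and 0.00112 by DESeq2. At 4 h its log2FC with CBD was -0.15 (interval -0.40 to 0.09), and the difference between the 2 times, -0.38, did not pass (adjusted p = 0.999 by limma and 0.305 with the block).

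The promoter of Sv2a, the member with the smallest p under CBD, is given by the same rules, and it held none of the 4 motifs in this window. The gene lies on chromosome 2 from 183741547 to 183756927 on mRatBN7.2.
Sv2a (GRCr8 chr2:186430113-186430362, plus strand): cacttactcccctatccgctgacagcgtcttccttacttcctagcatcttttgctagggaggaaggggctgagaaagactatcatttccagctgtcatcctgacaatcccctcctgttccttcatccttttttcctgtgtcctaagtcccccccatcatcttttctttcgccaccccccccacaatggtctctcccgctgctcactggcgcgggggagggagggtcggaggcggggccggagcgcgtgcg

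Snap25, the plasma membrane SNARE cleaved by several botulinum toxins, counted 6799, 5789 and 5849 after CBD and 7912, 7697 and 7785 after EtOH. The vehicle libraries were tightly grouped and all above the CBD libraries (log2FC -0.35, SE 0.0906, adjusted p = 0.327 by limma). Of the other 13 members with groups apart, 3 are given, named after their values were seen. Cplx2, a complexin that clamps and promotes fusion, had a log2FC of -0.34 (SE 0.0906), Sv2b of -0.40 (SE 0.124) and Sv2c of -0.74 (SE 0.243). The Sv2c difference came from replicates 1 and 2 (-1.15 and -1.04), with -0.03 at replicate 3 and under 130 counts in each library.

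By role, the values below 0 were spread over most of the machinery. All 6 SNARE genes had a log2FC below 0 (median -0.24), with 4 lower at all 3 numbers, and all 4 recycling genes were lower at all 3 (median -0.20). Of the 9 Rab3 and active zone genes 8 lay below 0 (median -0.15) and 6 were lower at all 3, and of the 6 vesicle membrane genes 5 lay below 0 (median -0.21). The calcium sensors were divided, 4 below and 4 above 0, with a median of 0.00. Syp (synaptophysin), an abundant vesicle membrane protein, had a log2FC of -0.02, with counts of 12970, 12990 and 15390 after CBD and 13250, 13060 and 15570 after EtOH, and Slc17a6 of 0.24, so the shift did not include every member.

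**Figure D5:**
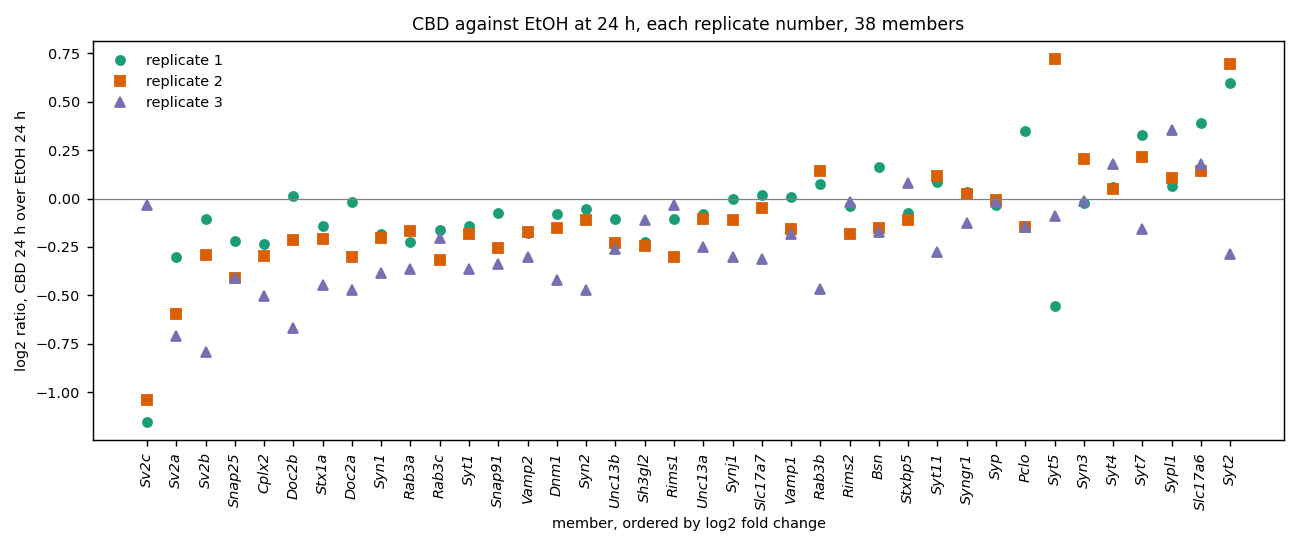
Log2 ratio of CBD to EtOH at 24 h (y axis) at each replicate number (3 points per member) for the 38 members (x axis, ordered by log2FC). The replicate 3 points sit lowest for many members, with a median of -0.27, against -0.06 at replicate 1.

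The size of the shift differed between replicate numbers. The median log2 ratio over the members was -0.06 at replicate 1, -0.15 at replicate 2 and -0.27 at replicate 3, with 25, 28 and 34 members below 0. For 14046 genes of at least 10 normalised counts on average the medians were 0.00, -0.00 and -0.02, held near 0 by the scaling. Leaving out 1 library at a time moved the median over the members between -0.20 and -0.09, the weakest without EtOH replicate 3. With the block, 6 members were called without replicate 1 and 0 without replicate 2.

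Other neuronal lists had medians below 0 as well at 24 h of CBD. The median log2FC was -0.09 for 72 other vesicle cycle genes (54 below 0), -0.17 for 36 receptor subunits (30 below 0), -0.20 for 24 postsynaptic scaffold genes (21 below 0) and -0.16 for 13 neuron markers (12 below 0), with 0 DEGs in each by limma. The neuron marker sum was 8101 to 8811 CPM after CBD and 8355 to 9819 after EtOH. GABAergic neuron markers had a log2FC below 0 in all 9 genes (median -0.44), 2 of them DEGs, Gad1 and Gad2, which encode the enzymes of GABA synthesis, and their sum lay between 328 and 380 CPM after CBD and between 487 and 505 after EtOH, without overlap. Astrocyte markers had a median of -0.30 with 0 of 10 called, and their sums at the 3 replicate numbers were 5153, 4621 and 2348 CPM after CBD and 4917, 5152 and 3088 after EtOH, higher with CBD at replicate 1 and lower at the others. The part of the makeup of the cultures in the members' values was not tested.

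The time dependence of the MMF and CBD effects was also examined. No member passed for MMF at 24 h less 4 h, nor for CBD, by limma with or without the block, and 0 genes passed without the block in either. For MMF 0 members and 0.909% of genes had an unadjusted p below 0.05 without the block. For CBD 6 members and 4.31% of genes did, and the median difference over the 38 was -0.15. With the block, 12 members and 10.9% of genes had an unadjusted p below 0.05 for CBD, and 8 genes passed. For MMF with the block, 0 members and 2.46% of genes had such a p. The lower levels at 24 h of CBD are therefore not shown to differ from those at 4 h for any member.

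Some named genes share their annotated span with another gene. This is so for 14 of the 38 members, and the strand used in counting is not given in the sources used here. Beside Doc2b, Syngr1 (synaptogyrin-1) shares 551 bases with Rpl3, which has a median of 10606 reads, and the whole of Syt5 lies within Ptprh. Syn3 shares 49921 bases with Timp3, which has a median of 915.5 reads against 2018 for Syn3. Sh3gl2 shares 149358 bases with Adamtsl1 (282.5 reads against 1616.5), and the whole of Syt7 lies within Lrrc10b (40 reads against 1990.5).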

How the data were processed

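Poly(A)+ RNA was sequenced as paired reads in 30 libraries. Per the labels, each experiment was repeated 3 times, and whether the repeats came from separate litters is not given in the sources used here. Before deposition the authors removed adapters (Cutadapt 4.4), trimmed by quality (Trimmomatic 0.39), ran HISAT2 2.2.1 against mRatBN7.2 and counted genes with HTSeq 2.0.3. The deposited signal values, as the authors made them, are gene counts divided by a DESeq2 1.40.2 size factor for each library, computed within the 6 libraries of a table. Values are therefore compared only within a table, of which 8 were used. The authors' fold changes and p-values in those tables were not used, nor were 11 other tables.

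Dividing by the smallest step of each library gave whole reads for 100% of values, to within 0.001 reads. The main test was limma 3.58.1 under R 4.3.3 (empirical Bayes with a mean trend, two-sided) on log2 of the value plus 1, because normalised values are not counts. Fold changes are therefore on the log2(value + 1) scale, which understates low genes. Genes were kept by filterByExpr of edgeR 4.0.16 on these reads. Benjamini-Hochberg adjustment covered all genes kept, and an adjusted p below 0.05 was a call. Differences between times, and levels across groups, were computed from the reads after median-ratio scaling of the libraries concerned.

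Replicate numbers were taken to pair the samples in the block fit only, because deviations from the group means correlated between libraries of the same number. The main test and its confidence intervals took no account of this pairing. For DMF at 4 h limma called 485 genes without the block and 3274 with it. These correlations ran from 0.13 to 0.67 over the 8 comparisons, while those of other numbers reached at most 0.14. For MMF against DMSO at 4 h the lowest of the same number, 0.129, was below the highest of other numbers, 0.134. Centring on the mean of each group also lowers those of other numbers when those of the same are positive. For differences between times the block was the replicate number over both times, a pairing that these correlations do not cover. The edgeR quasi-likelihood test on the recovered reads called 498 genes for DMF at 4 h, 535 for DMF at 24 h, 0 and 1 for MMF, 1 and 12 for CBD, 265 and 507 between the fumarates, and 608 for the difference of DMF effects. DESeq2 1.42.0 was a further alternative.

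The members, roles and other lists were chosen with earlier results of these data known. Library values are given for members called in the main or the block fit, at most 6 per comparison with the smallest p, and for the 2 of smallest p where none was called. Scripts were tested on simulated data. Plots were drawn with matplotlib 3.10.9.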

Additional observations from a re-analysis of the deposited data

Results flagged for a closer look

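The effect of DMF on Vamp1, as the log2 ratio to DMSO, differed between 24 h and 4 h by 0.60 (SE 0.147), by a test of the difference itself over 12 libraries (adjusted p = 0.0399, limma interaction of drug and time). It passed by edgeR (adjusted p = 0.0369) and DESeq2 (adjusted p = 0.00659) as well, and did not without the filter on low counts (adjusted p = 0.0502). With 1 library left out it passed in only 2 of 12 limma fits, with adjusted p between 0.0121 and 0.101. The vehicle groups of the 2 times, at 531 ± 12.6 and 508 ± 25.7 normalised counts (mean ± SD, n = 3 each), lay closer together than the DMF groups, at 409 ± 31.1 and 594 ± 85.2.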

How the results depend on the processing

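For single members, 322 of 363 values under an alternative kept their direction and side of the threshold. Another 30 passed where the main test did not, 11 no longer passed and 0 reversed. These values cover only members called in the main or block fit, at most 6 per comparison, or the 2 of smallest p otherwise. The block fit was also among the alternatives, so its passes were fixed by that choice. The counts are therefore not a rate for all members. The genes called over all follow in brackets where they were counted. For DMF at 4 h the main count of 0 members became 3 with the replicate block (3274 genes), 1 by DESeq2 (1024 genes) and 1 with the spread from all 30 libraries. For DMF at 24 h it became 7 with the block (1803 genes), and 4 by DESeq2 with the block (1120 genes). For CBD at 24 h it became 1 by DESeq2 (170 genes) and 3 with the spread of all 30 libraries (Sv2a, Sv2b and Snap25). It became 3 by DESeq2 with the block (Sv2a, Snap25 and Cplx2, beside 280 genes). Between the fumarates at 4 h it became 5 with the block (3347 genes), 3 by DESeq2 with the block (1755 genes) and 1 with the spread of all 30 libraries. At 24 h it became 3 with the block (1740 genes), 2 by DESeq2 (829 genes), 1 by edgeR (507 genes) and 1 with TMM scaling. The difference of DMF effects gave 1 member (594 genes), 0 without the filter and 2 with the block (1904 genes). By limma the block changed no other count of members. With the block, edgeR called 3 and 7 members for DMF at 4 and 24 h, beside 3212 and 1822 genes. Between the fumarates it called 4 and 3, beside 3329 and 1716 genes, and for the difference 2, beside 1936. DESeq2 with the block called 2 members for DMF at 4 h and 3 between the fumarates at 24 h, beside 1754 and 1119 genes. The fits with the block by other tools or scaling, and those without a replicate number, were chosen after seeing the data.

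Leaving out 1 library at a time gave 0 to 3 members called for DMF at 24 h, where 141 to 1165 genes were called. It gave 0 to 1 for the difference of DMF effects, where 275 to 644 genes were called. It gave 0 in every such fit of the other 7 comparisons. With the block and without 1 replicate number, the counts were 2 to 4 and 0 to 13 for DMF at 4 and 24 h, 0 to 0 and 1 to 2 for MMF, 0 to 0 and 0 to 6 for CBD, 0 to 7 and 2 to 7 between the fumarates, and 0 to 2 for the difference. The median log2FC of the members ran from -0.0606 to 0.105 and -0.0843 to -0.0188 for DMF, -0.0945 to 0.0236 and -0.0573 to 0.00103 for MMF, -0.0592 to 0.0608 and -0.199 to -0.0942 for CBD, -0.0414 to 0.122 and -0.0539 to -0.000175 between the fumarates (4 h before 24 h in each), and -0.160 to -0.0243 for the difference. The median ratio of the highest to the lowest group mean ran from 1.26 to 1.31.

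With 3 libraries per group, the median member needed a log2FC of 0.52 for a call with DMF at 4 h and 0.36 with DMF at 24 h. It needed 0.73 with MMF at 24 h, 1.81 with CBD at 4 h and 0.85 with CBD at 24 h. For MMF at 4 h no gene was called, so no such value could be given. Smaller differences were not detectable in the fit without the block.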
